A study of Mus musculus with 6 samples.

Results

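The 35 genes described here encode the enzymes, transporters and regulators that carry glucose to pyruvate and lactate, divert it into the pentose phosphate pathway, and adjust both to oxygen. They were listed by name and not by a cutoff on measured values, though with earlier results of these data known. Of the 35, 32 had a probe set annotated to that symbol alone and are the genes measured, out of 18194 genes on the array. Gpi1, Eno1 and G6pdx had no such probe set and were not analysed here. Where a gene had several probe sets, the one with the highest mean over the 6 arrays stood for it.

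RNA was measured on Affymetrix 3′ expression arrays in 3 groups of 2 arrays, all from bone marrow of adult mice. WT LSK FLT3- were cells of C57BL/6 mice without lineage markers or surface FLT3 but with SCA1 and KIT, a fraction that includes the hematopoietic stem cells. WT LMPP, the lymphoid-primed multipotent progenitors, came from the same strain and gate but carried high surface FLT3. E2A-KO LMPP were sorted with that FLT3-high gate from E2A knockout mice on a C57BL/6 background; E2A proteins are basic helix-loop-helix factors encoded by Tcf3. The labels give neither the knockout allele nor the sex, and one free-text label calls every sample wild-type LMPP, so the groups follow the titles. No title names an LSK FLT3- sample of the knockout, and the genotype was compared within LMPP alone. Whether the arrays within a group hold RNA of different mice or sorts is not stated, and the p-values therefore reflect only the spread between arrays, which may be technical.

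Glycolysis starts with hexokinases that trap glucose as its phosphate, passes the committed step at phosphofructokinase, and ends with pyruvate kinase; lactate dehydrogenase then regenerates the cofactor, or pyruvate enters mitochondria through the pyruvate dehydrogenase complex. Pyruvate dehydrogenase kinases close that entry. HIF transcription factors, which prolyl hydroxylases mark for destruction when oxygen is present, raise the transcription of many glycolytic genes and of these kinases. Hematopoietic stem cells are known for a glycolytic metabolism in a marrow niche low in oxygen, and the pentose phosphate branch supplies ribose for nucleotides and reducing power.

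The arrays of the groups were not alike in their overall distribution. The upper quartile (log2) was 6.13 and 6.15 for LSK FLT3- and ran from 5.78 to 5.82 over the LMPP arrays. Among markers of the sorted populations, 10 of 10 stem cell genes were lower and 8 of 8 LMPP genes higher in WT LMPP than in WT LSK FLT3-. Tcf3 itself lay at 6.93 and 6.86 in WT LMPP, against 6.80 and 6.53 in E2A-KO LMPP, a difference that was not past the threshold. The position of its probes relative to the deleted stretch is not given here, so this reading does not check the genotype.

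Promoter sequences were at hand for 30 of the 32 genes, from RefSeq on GRCm38.p6, each running from 250 bases before to 50 bases after an annotated start. They were searched on both strands for ACGTG, the only form searched of the core that HIF recognises. ACGTG also lies within the E-box CACGTG. It was found in 22 of 44 windows of these genes, against 19.6% of all 32851 windows and 22.9% of the 18110 windows of genes tested here. The E-boxes of the kind that E proteins bind, CACCTG and CAGCTG, were in 9 (20.5%) and 5 (11.4%) of the 44 windows, against 20.2% and 16.3% of all windows. The median GC content was 61% in these windows and 58.3% in those of the genes tested. A match is a run of letters and not a measured binding site.

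Shown are the windows of Hk1, Aldoc and Pdk3, which kept their falls between the wild-type fractions under the 14 alternatives run on single genes, of Ldha, which has the most matches, of Slc2a1, which differed most between the genotypes, and of Egln1, the gene that rose. Where a gene had several windows, the one with the most ACGTG matches is shown. Hk1, Aldoc and Ldha had 2 windows each, and the window not shown had 0 matches. Capitals mark ACGTG on either strand, read 5′ to 3′ in the direction of the gene. Hk1 lies at chr10:62340372-62340671 on the minus strand with 2 matches, Aldoc at chr11:78322823-78323122 on the plus strand with 1, and Pdk3 at chrX:93832101-93832400 on the minus strand with 1. Ldha lies at chr7:46845554-46845853 on the plus strand with 5, of which 4 are the strands of its 2 CACGTG boxes, Slc2a1 at chr4:119108495-119108794 on the plus strand with 1, and Egln1 at chr8:124949205-124949504 on the minus strand with 1.
Hk1: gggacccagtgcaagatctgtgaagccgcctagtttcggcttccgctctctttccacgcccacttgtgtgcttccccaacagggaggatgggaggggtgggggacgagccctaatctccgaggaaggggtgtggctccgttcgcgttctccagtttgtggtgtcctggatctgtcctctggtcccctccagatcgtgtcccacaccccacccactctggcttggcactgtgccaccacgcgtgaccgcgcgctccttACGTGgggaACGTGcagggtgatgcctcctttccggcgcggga
Aldoc: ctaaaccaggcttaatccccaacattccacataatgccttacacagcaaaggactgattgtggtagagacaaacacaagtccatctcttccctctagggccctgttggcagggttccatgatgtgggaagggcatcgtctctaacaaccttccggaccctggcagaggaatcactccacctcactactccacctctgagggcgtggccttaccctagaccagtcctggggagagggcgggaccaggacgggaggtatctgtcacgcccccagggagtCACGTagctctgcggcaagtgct
Pdk3: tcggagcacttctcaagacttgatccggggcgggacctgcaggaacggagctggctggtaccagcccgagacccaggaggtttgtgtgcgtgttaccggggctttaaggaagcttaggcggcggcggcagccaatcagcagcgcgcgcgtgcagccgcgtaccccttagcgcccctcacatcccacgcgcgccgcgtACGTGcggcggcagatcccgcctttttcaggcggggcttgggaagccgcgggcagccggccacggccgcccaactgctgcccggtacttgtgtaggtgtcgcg
Ldha: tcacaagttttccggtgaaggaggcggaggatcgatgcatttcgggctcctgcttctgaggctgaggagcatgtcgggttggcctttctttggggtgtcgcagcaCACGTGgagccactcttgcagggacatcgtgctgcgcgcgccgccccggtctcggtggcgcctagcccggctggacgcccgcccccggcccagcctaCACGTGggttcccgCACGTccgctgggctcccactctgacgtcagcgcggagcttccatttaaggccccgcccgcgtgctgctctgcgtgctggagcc
Slc2a1: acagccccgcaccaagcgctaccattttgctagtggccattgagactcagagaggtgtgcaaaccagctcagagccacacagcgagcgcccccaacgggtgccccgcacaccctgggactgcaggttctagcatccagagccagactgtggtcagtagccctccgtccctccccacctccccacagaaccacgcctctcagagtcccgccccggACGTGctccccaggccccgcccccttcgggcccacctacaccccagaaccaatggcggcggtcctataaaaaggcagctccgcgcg
Egln1: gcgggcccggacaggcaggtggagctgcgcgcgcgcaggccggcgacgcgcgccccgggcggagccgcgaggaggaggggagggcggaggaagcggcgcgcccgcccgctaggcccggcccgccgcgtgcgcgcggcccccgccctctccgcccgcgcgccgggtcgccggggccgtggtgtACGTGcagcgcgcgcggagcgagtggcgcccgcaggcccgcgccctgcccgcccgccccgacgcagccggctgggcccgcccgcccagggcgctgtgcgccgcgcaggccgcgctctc

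Most of the genes were lower in WT LMPP than in WT LSK FLT3-. Of the 32, 17 fell, 1 rose (Egln1) and 14 did not pass (limma, adjusted p under 0.05 over all 18194 genes). Among all genes tested, 23.7% fell and 10.4% rose. The median change of the 32 genes was -0.42 (log2), and 29 of 32 lay below 0, against a median of -0.01 and 50.8% below 0 over all genes tested. Both WT LMPP arrays were below both WT LSK FLT3- arrays for 26 of the 32 and above them for 2, where 39.3% and 32.4% of all genes tested had no overlap in those directions. In sorted bulk cells, fewer cells of a type and less RNA per cell cannot be told apart.

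These genes are among the brighter ones on the array, at a median percentile of 90 by mean level, and bright genes fell more often in general. Among the brightest 60% of genes, 37.1% of 10917 fell, with a median change of -0.29, and 17 of the 28 listed genes among them (60.7%) fell, with a median of -0.48. The count moved with the scaling of the arrays: after quantile normalization of the 6 arrays 5 of the 32 fell (15.6%), beside 10.1% of all genes. Without WT LSK FLT3- replicate 1 or 2, which leaves 1 array of that group, 4 (12.5%) and 5 (15.6%) of the 32 fell, beside 10.4% and 10.7% of all genes.

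**Figure D1:**
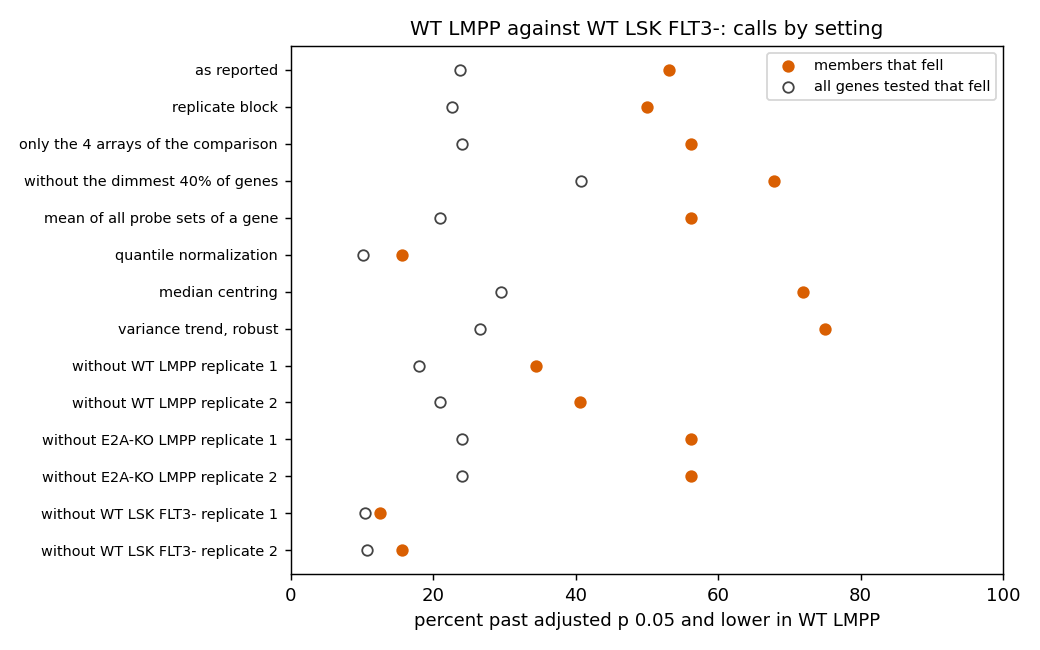
Share of the listed genes (filled) and of all genes tested (open) that fell from WT LSK FLT3- to WT LMPP, as percent past an adjusted p of 0.05, with 1 line for each setting of the analysis. As reported, 53.1% of the listed genes fell against 23.7% of all genes; with quantile normalization the shares were 15.6% and 10.1%.

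In hexokinase and early glycolysis, 6 of 9 genes fell, 0 rose and 3 did not pass. Aldoc, an aldolase that splits fructose bisphosphate, read 6.40 and 6.69 (log2) on the WT LSK FLT3- arrays, 5.35 and 4.99 in WT LMPP, against 5.41 and 5.28 in E2A-KO LMPP. Both WT LSK FLT3- arrays lay above all LMPP arrays, and Aldoc fell by 1.38 (SE 0.17, adjusted p = 0.000661), or 2.60-fold, between the wild-type fractions. Its other probe set was at 0.09 and did not pass. Hk1, the widely expressed hexokinase, read 9.44 and 9.67 in WT LSK FLT3-, 8.56 and 8.63 in WT LMPP, against 8.39 and 8.34 in E2A-KO LMPP. The 3 groups did not overlap, and Hk1 fell by 0.97 (SE 0.14, adjusted p = 0.00124), or 1.95-fold, from WT LSK FLT3- to WT LMPP.

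Pfkp, the platelet-type phosphofructokinase subunit, read 7.16 and 7.27 in WT LSK FLT3-, 6.58 and 6.60 in WT LMPP, against 6.62 and 6.88 in E2A-KO LMPP. Its WT LMPP arrays were the lowest, and it fell by 0.63 (SE 0.14, adjusted p = 0.00938). Aldoa, the main muscle and blood aldolase, read 9.44 and 9.37, then 8.87 and 8.83, then 9.13 and 9.05 in the same order of groups. WT LMPP was again lowest without overlap on this brightest probe set, and Aldoa fell by 0.55 (SE 0.13, adjusted p = 0.0106). Of its other probe sets, those at -0.60 and -0.90 fell (limma adjusted p = 0.021 and 0.00194 over all probe sets). Those at -0.23 and -0.53 did not pass. On none of these others was WT LMPP lowest without overlap.

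Hk2, the inducible hexokinase, fell by 0.54 (adjusted p = 0.0137), and Pfkm, the muscle-type phosphofructokinase subunit, by 0.41 (adjusted p = 0.0344). The liver-type subunit Pfkl was at -0.33 (adjusted p = 0.0969) and the triose phosphate isomerase gene Tpi1 at -0.26 (adjusted p = 0.137), each on its brightest probe set. A second Pfkl probe set fell by 0.62 (adjusted p = 0.0179 over all probe sets) and the third was at 0.09. Pfkfb3, which makes the activator of phosphofructokinase, was at -0.05 with overlapping arrays (adjusted p = 0.849).

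**Figure D2:**
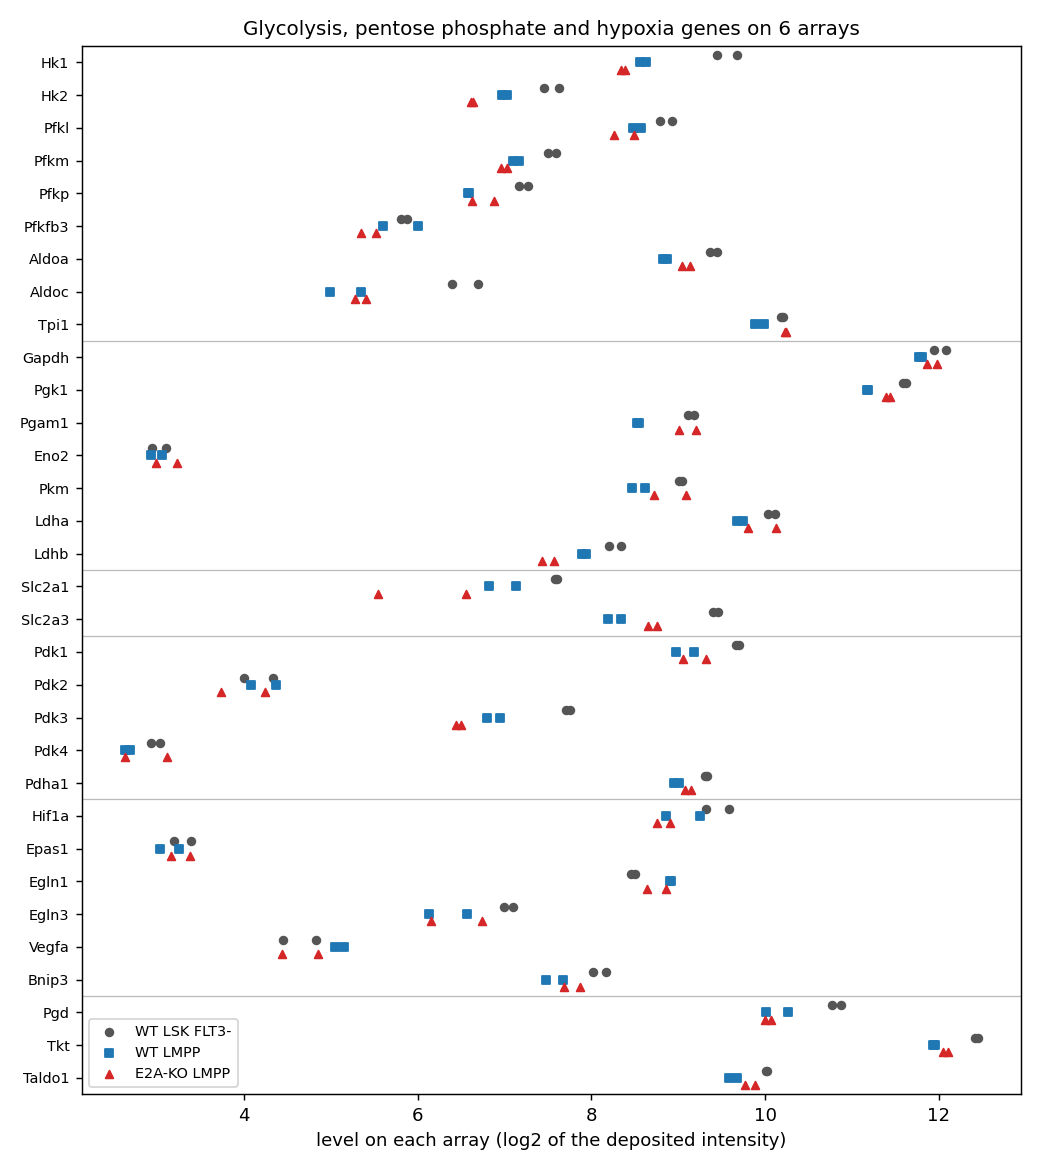
Level of each of the 32 genes on each of the 6 arrays (log2 of the deposited intensity), with circles for WT LSK FLT3-, squares for WT LMPP and triangles for E2A-KO LMPP. Grey lines part the roles. For Aldoc the WT LSK FLT3- arrays at 6.40 and 6.69 stand to the right of all LMPP arrays, while Eno2, Pdk2, Pdk4 and Epas1 lie near the low end of the scale in every group.

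In late glycolysis, 3 of 7 genes fell and 4 did not pass, and the change was below 0 for all 7. Pgam1, phosphoglycerate mutase, read 9.18 and 9.12 in WT LSK FLT3-, 8.53 and 8.55 in WT LMPP, against 9.01 and 9.20 in E2A-KO LMPP. Only its WT LMPP arrays were low, and it fell by 0.61 (SE 0.13, adjusted p = 0.00858) between the wild-type fractions.

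Pkm, the pyruvate kinase of most tissues, read 9.05 and 9.01 in WT LSK FLT3-, 8.62 and 8.47 in WT LMPP, against 9.09 and 8.72 in E2A-KO LMPP, and fell by 0.48 (SE 0.16, adjusted p = 0.0419). Pgk1, phosphoglycerate kinase and the first ATP-making step, read 11.62 and 11.58, then 11.17 and 11.19, then 11.39 and 11.43, and fell by 0.42 (SE 0.12, adjusted p = 0.029). For both, the WT LMPP arrays were the lowest of the 6.

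The lactate dehydrogenase subunits did not pass, Ldha at -0.36 (adjusted p = 0.0885) and Ldhb at -0.36 (adjusted p = 0.0626), and both had WT LMPP arrays below the WT LSK FLT3- arrays. For Ldhb, 2 of the other 3 probe sets fell, by 0.63 and 0.57 (adjusted p = 0.0301 and 0.0288 over all 45101 probe sets). Gapdh, represented by the array's own 3′ control probe set, was at -0.22 (adjusted p = 0.21), and the neuronal enolase Eno2, at the dim end of the array, at -0.02 (adjusted p = 0.91).

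Of the glucose transporters, Slc2a3 fell and Slc2a1 did not pass in the same comparison. Slc2a3, which encodes the high-affinity transporter GLUT3, read 9.40 and 9.46 in WT LSK FLT3-, 8.34 and 8.20 in WT LMPP, against 8.65 and 8.76 in E2A-KO LMPP. The 3 groups did not overlap, and it fell by 1.16 (SE 0.13, adjusted p = 0.000475), or 2.24-fold. Slc2a1, which encodes GLUT1, read 7.60 and 7.59, then 7.13 and 6.82, then 5.55 and 6.56, with a change of -0.62 between the wild-type fractions (SE 0.28, adjusted p = 0.119). Its 3 groups were also apart, and its E2A-KO LMPP arrays differed from each other by more than the wild-type fractions did. The second Slc2a1 probe set fell by 0.62 between the wild-type fractions (SE 0.14, adjusted p = 0.0116 over all probe sets), and the third was at 0.07. For Slc2a3, 1 of the other 3 probe sets fell, by 0.96, and the others were at 0.12 and 0.30 and did not pass.

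At the pyruvate dehydrogenase gate, 2 of 5 genes fell and 3 did not pass. Pdk3, a pyruvate dehydrogenase kinase, read 7.71 and 7.75 in WT LSK FLT3-, 6.80 and 6.95 in WT LMPP, against 6.44 and 6.50 in E2A-KO LMPP, a fall of 0.86 (SE 0.13, adjusted p = 0.00167). The groups did not overlap, with E2A-KO LMPP lowest. Pdk1, the kinase best known as a HIF target, read 9.70 and 9.66, then 8.98 and 9.18, then 9.06 and 9.32, and fell by 0.61 (SE 0.15, adjusted p = 0.0136). Both WT LSK FLT3- arrays lay above the LMPP arrays, which overlapped between genotypes. These Pdk1 values are of its brightest probe set. Another fell by 0.74 (limma adjusted p = 0.00762 over all probe sets). The second brightest was at 0.10 (adjusted p = 0.654) and the dimmest at 0.21 (adjusted p = 0.455), and neither passed.

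Pdha1, a catalytic subunit of the complex that these kinases inhibit, was at -0.34 (adjusted p = 0.0606). Pdk2 and Pdk4, the other kinases, were dim on every array and were at 0.06 (adjusted p = 0.852) and -0.33 (adjusted p = 0.168).

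Among the hypoxia factors, oxygen sensors and targets, 2 of 6 genes fell, 1 rose and 3 did not pass. Egln1, the main prolyl hydroxylase acting on HIF, read 8.50 and 8.45 in WT LSK FLT3-, 8.90 and 8.92 in WT LMPP, against 8.65 and 8.86 in E2A-KO LMPP. It rose by 0.43 (SE 0.13, adjusted p = 0.0345) from WT LSK FLT3- to WT LMPP, whose arrays were the highest of the 6. Centring each array on its median ended the call, as did leaving out any wild-type array. The call was also lost with all probe sets as the unit (limma adjusted p = 0.0525). On that scale its second probe set was at 0.32 (adjusted p = 0.127). Bnip3, a mitophagy receptor induced by HIF, read 8.17 and 8.02, then 7.68 and 7.48, then 7.87 and 7.69, with its wild-type fractions apart. It fell by 0.52 (SE 0.14, adjusted p = 0.0233).

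Egln3, a hypoxia-induced prolyl hydroxylase, read 6.99 and 7.10 in WT LSK FLT3-, 6.13 and 6.57 in WT LMPP, against 6.15 and 6.74 in E2A-KO LMPP on its brightest probe set, a fall of 0.69 (SE 0.21, adjusted p = 0.0355). Its second probe set rose by 0.68 (SE 0.14, adjusted p = 0.0087 over all probe sets), so the direction for Egln3 depends on the probe set. Hif1a, the oxygen-regulated HIF subunit, was at -0.40 (adjusted p = 0.103) with WT LMPP below WT LSK FLT3- on its brightest probe set. Its probe sets at -0.42 and -0.76 also had WT LMPP lower and did not pass. The dimmest of its 4 probe sets rose by 0.94 (SE 0.17, limma adjusted p = 0.00494 over all probe sets). That one read 3.33 and 3.15 in WT LSK FLT3- and 4.38 and 3.97 in WT LMPP.

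Epas1, which encodes HIF-2 alpha, was dim and at -0.15 (adjusted p = 0.477) on the brightest of its probe sets, and the other one fell by 1.02 (adjusted p = 0.00702). Vegfa, the angiogenic HIF target, was at 0.47 (adjusted p = 0.0804), with WT LMPP arrays above WT LSK FLT3-.

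**Figure D3:**
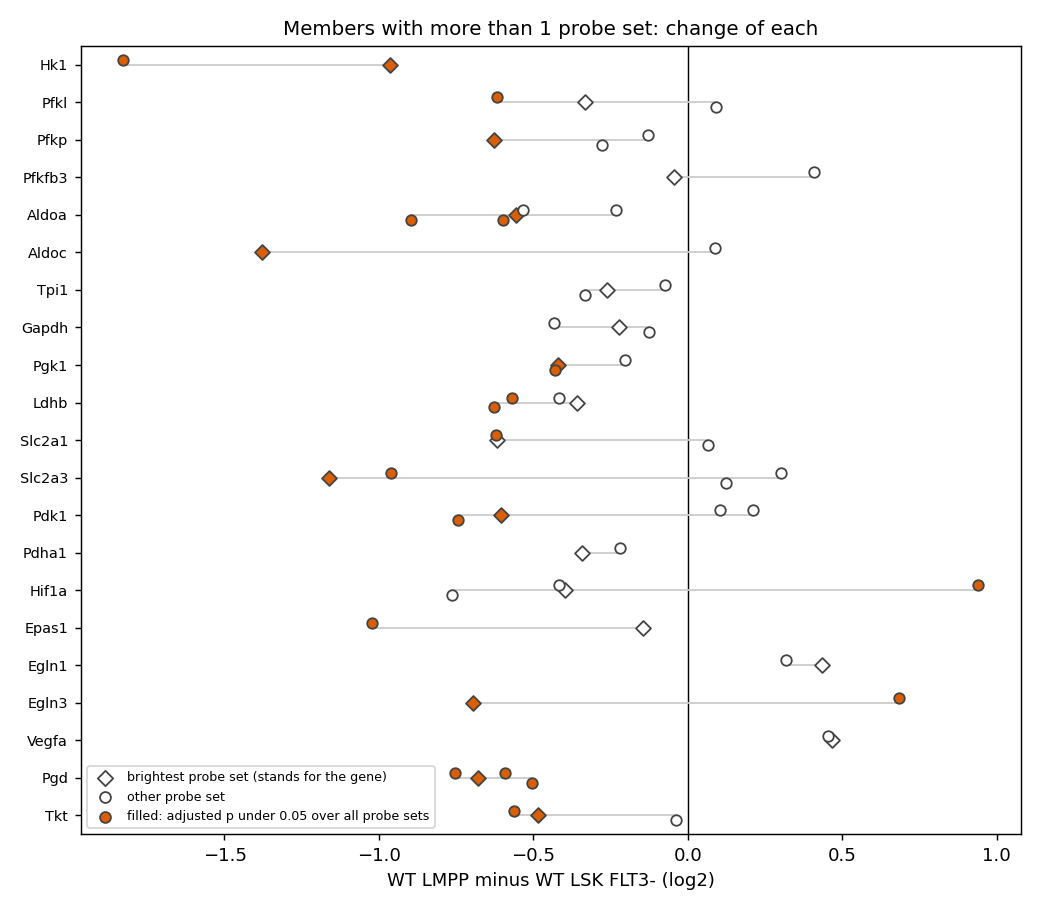
Change from WT LSK FLT3- to WT LMPP (log2) of every probe set of the 21 genes that have more than 1. Diamonds are the brightest probe set of a gene, circles the others, and filled symbols passed an adjusted p of 0.05 over all probe sets. The 4 probe sets of Pgd all fell, while those of Egln3 passed in opposite directions at -0.69 and 0.68.

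All 3 measured pentose phosphate genes fell. Pgd, the dehydrogenase of the oxidative arm, read 10.88 and 10.77 in WT LSK FLT3-, 10.01 and 10.27 in WT LMPP, against 10.07 and 10.004 in E2A-KO LMPP. It fell by 0.68 (SE 0.14, adjusted p = 0.00688), with both WT LSK FLT3- arrays above every LMPP array, and all 4 of its probe sets fell. Tkt, transketolase of the non-oxidative arm, read 12.45 and 12.41, then 11.93 and 11.95, then 12.05 and 12.11, and fell by 0.49 (SE 0.12, adjusted p = 0.017). For Taldo1, transaldolase of the same arm, the arrays read 10.01 and 10.02, then 9.68 and 9.59, then 9.77 and 9.88, and it fell by 0.38 (SE 0.13, adjusted p = 0.0473). For both the WT LMPP arrays were the lowest of the 6. The Taldo1 call, nearest to the threshold, was lost under 7 of 14 alternatives (adjusted p up to 0.499).

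Of the 18 calls between the wild-type fractions, 4 (Hk1, Aldoc, Slc2a3 and Pdk3) were kept under all 14 alternatives run on single genes, which set no minimum fold, with adjusted p up to 0.0234, 0.0315, 0.0177 and 0.0318. Pgd lost its call under 1 of them, without WT LSK FLT3- replicate 1 (adjusted p = 0.0737). The other 13 calls were lost under 3 or more alternatives, leaving out either WT LSK FLT3- array among them.

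Other marker groups moved in the same comparison, and their part in the falls was not tested. The mature neutrophil and monocyte list had 6 of 10 genes higher in WT LMPP, with sums of 1489 to 1592 in WT LSK FLT3- and 2691 to 2749 in WT LMPP. In the T and NK cell list 2 of 7 genes were higher and 1 lower in WT LMPP. That list summed to 633 to 672 in WT LSK FLT3- and 421 to 424 in WT LMPP. The erythroid list had 5 of 8 genes lower and 2 higher in WT LMPP, and its summed intensity was 489 to 502 in WT LSK FLT3-. It was 168 to 173 in WT LMPP and 183 to 197 in E2A-KO LMPP. The megakaryocyte list had 5 of 6 lower, with sums of 484 to 498, 121 to 130 and 160 to 163, and the mast cell and basophil list 3 of 5 lower, with sums of 282 to 285, 60 to 61 and 73 to 75. The mature B and plasma cell list had 2 of 7 genes lower and 2 higher in WT LMPP. It summed to 1338 to 1482 in WT LSK FLT3- and 137 to 141 in WT LMPP. Its Igha read 9.97 and 10.13 in WT LSK FLT3- and 4.03 and 4.50 in WT LMPP. Jchain read 7.83 and 8.05, then 3.32 and 3.02. Cd79a was higher, at 3.49 and 3.30 in WT LSK FLT3- and 4.25 and 3.97 in WT LMPP. Ebf1 was also higher, at 2.93 and 2.93, then 3.60 and 3.89. The proliferation list averaged 9.78 and 9.82 (log2) in WT LSK FLT3- and 9.95 on both WT LMPP arrays, with 4 of 9 genes higher and 1 lower. The difference between the 3′ and 5′ Actb control probe sets, which depends on RNA length, was 3.55 and 3.45 in WT LSK FLT3-. In LMPP it was 3.77 to 3.95. For the Gapdh control probe sets the difference was 3.44 and 3.25 in WT LSK FLT3- and 3.09 to 3.35 in LMPP, which overlap. The part of RNA length was not tested either.

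No listed gene passed between E2A-KO LMPP and WT LMPP. By limma, 0 of 32 rose and 0 fell, while 0.379% of all genes tested rose and 0.995% fell. At an unadjusted p under 0.05 were 9 of the 32 and 2665 of all 18194 genes. The changes ran from -0.92 to 0.57 with a median of 0.12, 19 above 0 and 13 below. The SE of a change was 0.12 to 0.28, and that 0 genes passed does not show that their levels were equal. Both E2A-KO arrays were above both WT LMPP arrays for 13 of 32 genes and below them for 9, beside 18.8% and 22.8% of all genes tested.

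**Figure D4:**
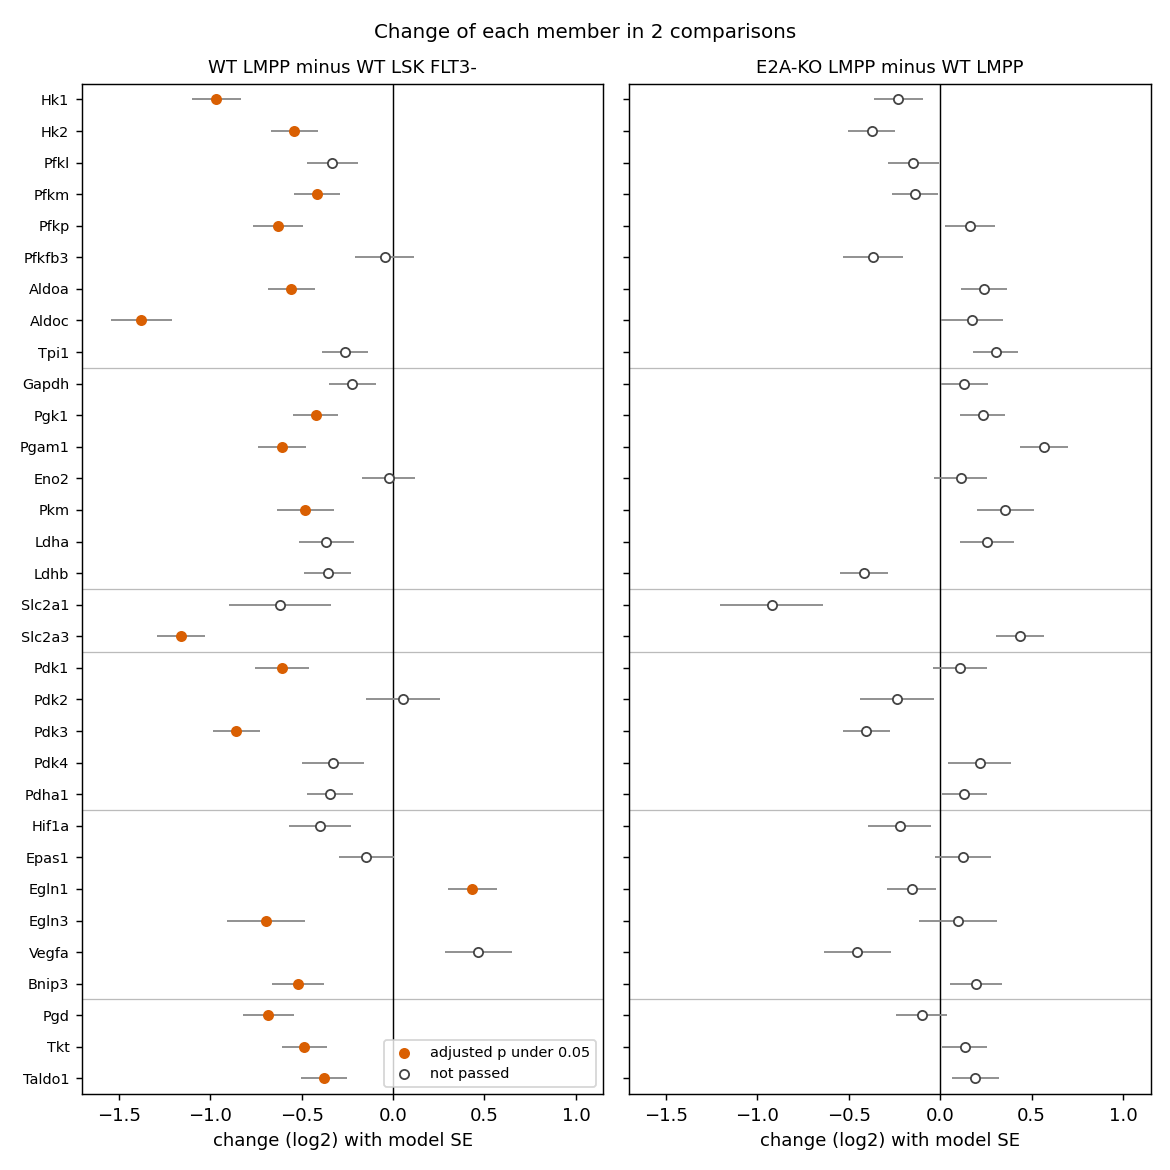
Change of each of the 32 genes (log2, points) with its model SE (bars), from WT LSK FLT3- to WT LMPP at left and from WT LMPP to E2A-KO LMPP at right. Filled points passed an adjusted p of 0.05. At left 17 filled points lie below 0 and 1 above; at right no point is filled, and Slc2a1 at -0.92 and Pgam1 at 0.57 lie farthest from 0.

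Nearest to the threshold was Pgam1, with 8.53 and 8.55 in WT LMPP, against 9.01 and 9.20 in E2A-KO LMPP. It was 0.57 higher in E2A-KO LMPP (SE 0.13, 95% interval 0.27 to 0.87, adjusted p = 0.0853), with both knockout arrays above both WT LMPP arrays. Slc2a3 was 0.44 higher (SE 0.13, 95% interval 0.14 to 0.73, adjusted p = 0.169), again without overlap. Slc2a1 was 0.92 lower (SE 0.28, 95% interval -1.56 to -0.29, adjusted p = 0.174), and its knockout arrays at 5.55 and 6.56 were the lowest of the 6.

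Slc2a1 was the only listed gene with a probe set past the threshold between the genotypes, and all its probe sets lay below 0. Its second probe set read 6.65 and 6.67 in WT LSK FLT3-, 6.10 and 5.97 in WT LMPP, against 4.92 and 5.004 in E2A-KO LMPP. The knockout arrays were the lowest and close to each other, and this probe set fell by 1.07 between the genotypes (SE 0.14, adjusted p = 0.00862 over all probe sets). Leaving out either knockout array ended that call (adjusted p up to 0.0658). The third and dimmest probe set, at 4.50 and 4.60 in WT LMPP, against 4.08 and 3.76 in E2A-KO LMPP, was at -0.63 (adjusted p = 0.108). With the mean of the probe sets standing for each gene, Slc2a1 was at -0.88 and passed, as it did with a variance trend and without E2A-KO LMPP replicate 2 (-1.43). Without E2A-KO LMPP replicate 1 it was at -0.42 (adjusted p = 0.385).

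**Figure D5:**
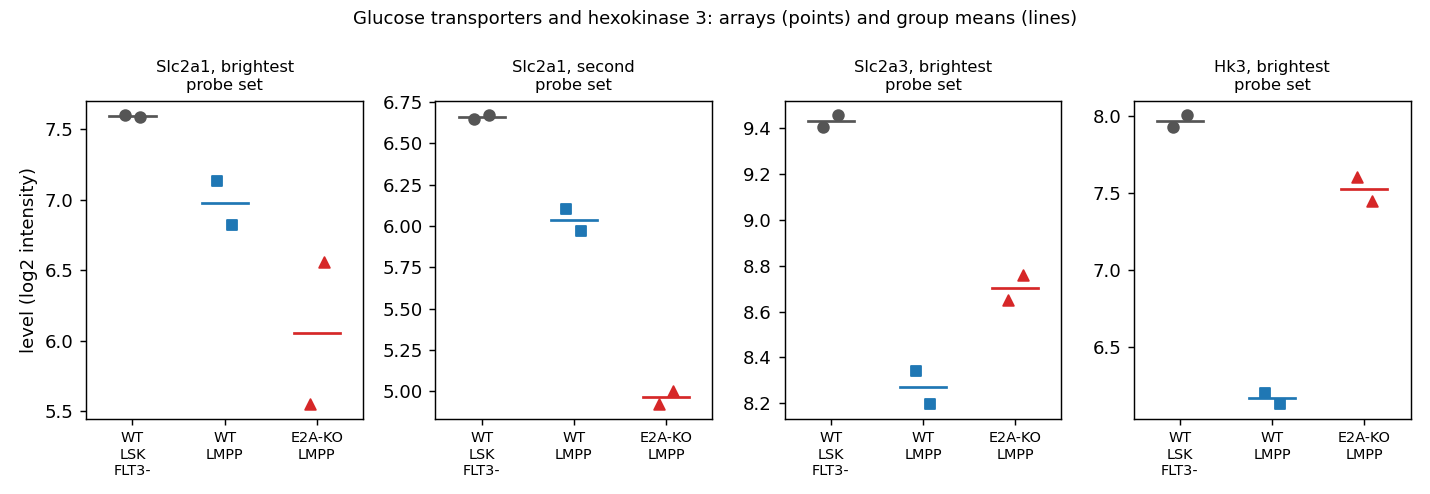
Levels (log2 intensity) of 2 probe sets of Slc2a1, the brightest probe set of Slc2a3 and that of Hk3 on each array (points) with the group mean (lines). For Hk3 the E2A-KO LMPP arrays at 7.61 and 7.45 lie between WT LMPP at 6.20 and 6.13 and WT LSK FLT3- at 7.93 and 8.01, and for Slc2a1 they are the lowest on both probe sets. The vertical scale differs between the plots.

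By role, the change lay above 0 in the knockout for 6 of 7 late glycolysis genes, with a median of 0.23. For 5 of the 7 there was no overlap between the genotypes in that direction, and 0 of the 7 passed. Over all genes tested, 8591 of 18194 lay above 0 and 18.8% had no overlap in that direction. Beside Pgam1, Pkm was at 0.36 (adjusted p = 0.338), Ldha at 0.26 (adjusted p = 0.474), Pgk1 at 0.23 (adjusted p = 0.426) and Gapdh at 0.13 (adjusted p = 0.694). Ldhb was the exception at -0.42, reading 8.34 and 8.21 in WT LSK FLT3-, 7.90 and 7.94 in WT LMPP, against 7.57 and 7.44 in E2A-KO LMPP (SE 0.13, adjusted p = 0.187). Its knockout arrays were the lowest of the 6 on this probe set, while the Ldha arrays, at 10.03 and 10.12, then 9.75 and 9.67, then 10.13 and 9.80, were lowest in WT LMPP.

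The hexokinase and early glycolysis genes were divided, 5 below 0 and 4 above. Hk2 was at -0.37 (adjusted p = 0.228), reading 6.97 and 7.03 in WT LMPP and 6.63 and 6.62 in the knockout without overlap. Hk1 was at -0.23 (adjusted p = 0.484), Pfkfb3 at -0.37 (adjusted p = 0.345), and Tpi1 at 0.30 (adjusted p = 0.309) with knockout arrays at 10.23 and 10.24 above WT LMPP at 9.99 and 9.88. Aldoa, Aldoc, Pfkl, Pfkm and Pfkp lay between -0.15 and 0.24. These are values of the brightest probe sets. Hk1, Pfkl, Aldoa, Aldoc and Pfkp also had probe sets on the other side of 0. The farthest were at 0.31, 0.36, -0.17, -0.32 and -0.11 in that order, and none of them passed.

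Of the kinases at the pyruvate dehydrogenase gate, Pdk3 was at -0.41 (adjusted p = 0.189) and Pdk1 at 0.11 (adjusted p = 0.788). Pdk2 was at -0.24, Pdk4 at 0.22 and Pdha1 at 0.13. The dimmest Pdk1 probe set was at 0.81 (limma adjusted p = 0.101 over all probe sets). The other Pdha1 probe set was at -0.38 and did not pass. Vegfa was at -0.45 (adjusted p = 0.298), with WT LMPP at 5.05 and 5.16 above the knockout at 4.44 and 4.86. Hif1a, Epas1, Egln1, Egln3 and Bnip3 lay between -0.22 and 0.20, and the pentose phosphate genes Pgd, Tkt and Taldo1 at -0.10, 0.13 and 0.19.

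Markers of other cells differed between the genotypes too. The mature neutrophil and monocyte list had 6 of 10 genes lower in E2A-KO LMPP, with sums of 2691 to 2749 in WT LMPP and 545 to 598 in the knockout. Of the LMPP markers 5 of 8 were lower. In the T and NK cell list 1 of 7 genes was higher, Nkg7 by 0.83 (limma adjusted p = 0.0269). That list summed to 421 to 424 in WT LMPP and 613 to 696 in the knockout. The proliferation list averaged 9.95 in WT LMPP and 9.97 and 9.88 in the knockout, with 0 of 9 past the threshold. Their part in the values above was not tested.

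The comparison of E2A-KO LMPP with WT LSK FLT3- shares arrays with both others, so its values stand beside them and support neither. Here 13 of 32 genes fell and 0 rose, beside 26.5% of all genes that fell and 11% that rose. Among the brightest 60% of genes, 41.7% fell, with a median change of -0.33. Of the 28 listed genes among them 13 fell (46.4%), with a median of -0.44, a share near that of bright genes in general. The 13 were Hk1, Hk2, Pfkl, Pfkm, Pfkp, Aldoc, Ldhb, Slc2a1, Slc2a3, Pdk1, Pdk3, Hif1a and Pgd. For Pdk1, Pfkl and Hif1a 1 probe set each passed the other way, at 1.02, 0.45 and 0.64 (over all probe sets), and the mean of all probe sets put Pdk1 at 0.05 (adjusted p = 0.777) and ended the Pfkl call.

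Slc2a1 had the largest fall, 1.54 (SE 0.28, adjusted p = 0.00353), followed by Pdk3 at 1.26, Aldoc at 1.20 and Hk1 at 1.19. In late glycolysis 1 of 7 fell, Ldhb by 0.77 (adjusted p = 0.00253). Pgam1 was at -0.04, Pkm at -0.12, Pgk1 at -0.19 and Ldha at -0.11, beside -0.61, -0.48, -0.42 and -0.36 for WT LMPP against the same arrays. Tkt was at -0.35 (adjusted p = 0.0516), Taldo1 at -0.19 and Pgd at -0.78. The calls of 6 genes (Hk1, Hk2, Aldoc, Slc2a1, Pdk3 and Pgd) were kept under the 14 alternatives run on single genes.

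The rest of the pathway was read from 4 lists of related genes. Over all genes tested, 23.7% fell between the wild-type fractions, and 37.1% of the brightest 60% did. For the knockout beside the WT LSK FLT3- arrays, these shares were 26.5% and 41.7%. Of the 4 lists, in the order below, 41.2%, 41.7%, 28.6% and 57.1% fell between the wild-type fractions. For the knockout beside WT LSK FLT3-, 47.1%, 50%, 42.9% and 61.9% fell. Whether any list departed from the general shares was not tested. Of 17 other glycolysis and glycogen genes, 7 fell and 1 (Fbp2, a dim gene, by 0.55) rose from WT LSK FLT3- to WT LMPP. Hk3, a hexokinase of blood cells, read 7.93 and 8.01 in WT LSK FLT3-, 6.20 and 6.13 in WT LMPP, against 7.61 and 7.45 in E2A-KO LMPP. It fell by 1.80 between the wild-type fractions (SE 0.13, adjusted p = 4.95e-05) and rose by 1.37 in the knockout (SE 0.13, adjusted p = 0.00176), or 2.58-fold. The rise passed under all 14 alternatives, with adjusted p up to 0.0225. In that comparison 0 of the other 16 genes passed.

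The glycogen phosphorylase Pygl fell by 1.05 and the gluconeogenic phosphatase Fbp1 by 0.99 between the wild-type fractions (adjusted p = 0.00214 and 0.00267), and both were at 0.29 and 0.09 in the knockout. Against WT LSK FLT3-, 8 of the 17 fell and 3 rose in E2A-KO LMPP, with the largest falls in Ugp2 (-0.94), Fbp1 (-0.91) and Pgm2 (-0.87).

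Of 12 genes of pyruvate and lactate handling, 5 fell and 0 rose in WT LMPP. Mpc1, a subunit of the mitochondrial pyruvate carrier, fell by 1.22 (SE 0.17, adjusted p = 0.00132), Pdp1, the phosphatase that reopens pyruvate dehydrogenase, by 1.05 (adjusted p = 0.0164), and Dld, a subunit shared by that complex, by 0.93 (adjusted p = 0.0018). In the knockout 0 of 12 passed against WT LMPP, with Mpc1 at 0.01, Pdp1 at -0.05 and Dld at 0.04. Against WT LSK FLT3- 6 of 12 fell and 1 rose in E2A-KO LMPP, Mpc1 by 1.22, Pdp1 by 1.10 and Dld by 0.90.

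Of 7 other pentose phosphate genes, 2 fell in WT LMPP: Rpia, which makes ribose phosphate, by 1.20 (SE 0.13, adjusted p = 0.000374), and Prps1, which activates it for nucleotides, by 0.55 (adjusted p = 0.0165). The Rpia arrays read 9.62 and 9.62 in WT LSK FLT3-, 8.45 and 8.38 in WT LMPP, against 8.69 and 8.84 in E2A-KO LMPP, without overlap. In the knockout 0 of 7 passed, with Rpia at 0.35. Against WT LSK FLT3- 3 of 7 fell in the knockout, Rpia by 0.85, Rpe by 0.66 and Prps1 by 0.44.

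Of 21 other hypoxia factors and targets, 12 fell and 0 rose in WT LMPP. Ndrg1, a hypoxia-induced gene, fell by 1.14 (SE 0.13, adjusted p = 0.000467). Hif3a, a further HIF subunit, fell by 1.06 (adjusted p = 0.000864) and Meis1, a stem cell factor known to regulate Hif1a, by 1.06 (adjusted p = 0.00084). The mean of all probe sets ended both of those calls, with Hif3a at 0.09 and Meis1 at -0.26.

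In the knockout 1 of these 21 genes passed, Ddit4, an inhibitor of mTOR signalling induced by hypoxia and other stress. It read 6.49 and 6.72 in WT LSK FLT3-, 5.93 and 6.29 in WT LMPP, against 4.85 and 5.17 in E2A-KO LMPP, a fall of 1.10 (SE 0.18, adjusted p = 0.0215). The knockout arrays were the lowest without overlap; the call was lost under 6 of 14 alternatives, with adjusted p up to 0.124, leaving out either knockout array among them. Against WT LSK FLT3-, 13 of the 21 fell in E2A-KO LMPP, led by Ddit4 at -1.60, Meis1 at -1.03 and Ero1a at -0.91. With the mean of all probe sets Meis1 was at 0.21 (adjusted p = 0.283).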

How the data were processed

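Expression was measured on 6 arrays, 3 groups of 2. Per the labels' protocols, cells were sorted into lysis buffer and cRNA was made with a second round of amplification, which favours 3′ ends. The authors deposited linear intensity per probe set, computed with RMA per the submitters' processing notes; whether all arrays were normalized in 1 run, and the RMA version, are not given in the sources used here. Values ran from 4.23 to 25594, and log2 was taken here.

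Of 45101 probe sets, 34958 had 1 gene symbol, 932 several and 9211 none; probe sets with 1 symbol gave 18194 genes, each read from its brightest probe set. Groups were compared with limma 3.58.1 in R 4.3.3, with 1 mean per group on all 6 arrays, two-sided p adjusted by Benjamini-Hochberg over all genes and a threshold of 0.05; the script was tested on simulated data. Intervals are 95%. With 2 arrays a group, the number of arrays limits the precision, and no read depth exists. No detection calls were used; values near the array median of about 4 (log2) are in the compressed low range. Plots used matplotlib 3.10.9 and Python 3.11.15.

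The 35 genes, the related gene lists and the markers were chosen with earlier results of these data known. Every listed gene is named. Array values are given for up to 4 called genes of a role with the largest change, for the 3 genes nearest to the threshold between the genotypes and for isoenzyme pairs that moved in opposite directions; of related lists, up to 3 called genes with the largest change are named. Second probe sets, Fbp2, Hk2, Ldha, Ldhb, Tpi1, Vegfa and Rpia were given with array values, or singled out, after their values were seen.

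Alternatives were a replicate block, a fit restricted to the 4 arrays compared, removal of the dimmest 40% of genes, each gene's probe sets averaged, quantile normalization, median centring, a robust fit with a variance trend, each array left out, other thresholds and, chosen after the data were seen, all probe sets as the unit.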

Additional observations from a re-analysis of the deposited data

How the results depend on the processing

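The number of arrays limits every result: with 1 array left out, a group of 1 is assumed to vary like the others, and where the array left out belongs to neither group the fit equals that on the 4 arrays of the comparison. Dim genes have compressed changes. Probe sets passed in opposite directions for Egln3 between the wild-type fractions and for Hif1a, Pdk1 and Pfkl between E2A-KO LMPP and WT LSK FLT3-, and other genes had probe sets of which some passed and others did not.

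Between the wild-type fractions 17 of the listed genes fell in WT LMPP, and the count was 5 with quantile normalization, 2 with a minimum of 2-fold and 4 to 18 with 1 array left out, the lowest without WT LSK FLT3- replicate 1; it was 11 without WT LMPP replicate 1 and 5 without WT LSK FLT3- replicate 2. It rose to 23 with median centring, which moved the median change of all genes from -0.01 to -0.12, and to 24 with a variance trend. The count of listed genes that rose, 1, became 2 with the replicate block, the mean of all probe sets or an adjusted p under 0.1, 0 with median centring or a minimum of 2-fold, and 0 to 1 with 1 array left out. The genes changed over the whole array numbered 6198, and 3496 with quantile normalization, 1214 with a minimum of 2-fold and 2370 to 6410 with 1 array left out. Of all calls, 30.5% were rises, against 47.4% with quantile normalization, 17.8% with median centring, 20.4% without the dimmest 40% of genes, and 20% and 20.5% without WT LSK FLT3- replicate 1 and 2.

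Between E2A-KO LMPP and WT LMPP, 0 listed genes fell, and 1 did (Slc2a1) with the mean of all probe sets, with a variance trend and without E2A-KO LMPP replicate 2, a range of 0 to 1 with 1 array left out. The 0 that rose became 2 with a variance trend and 1 at an adjusted p under 0.1. The 250 genes changed became 89 on the 4 LMPP arrays alone, 548 with a variance trend, 508 at an adjusted p under 0.1, 123 with a minimum of 2-fold and 89 to 164 with 1 array left out.

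Between E2A-KO LMPP and WT LSK FLT3-, the 13 listed genes that fell became 6 with quantile normalization, 4 with a minimum of 2-fold and 8 to 16 with 1 array left out, the 8 without either WT LSK FLT3- array. The 0 that rose became 1 with quantile normalization (Egln1). The 6822 genes changed became 3617 with quantile normalization, 1358 with a minimum of 2-fold and 2944 to 7515 with 1 array left out. With quantile normalization 44% of calls were rises, with median centring 14.6%, without the dimmest 40% of genes 18.7% and without WT LSK FLT3- replicate 1 or 2 16.8% and 17.6%, against 29.3%.

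The mean of all probe sets turned the direction of Pdk1 (0.046), Hif3a (0.16) and Meis1 (0.21) between E2A-KO LMPP and WT LSK FLT3-, and of Dlat (-0.36), Arnt (0.0672) and Hif3a (0.086) between the wild-type fractions; quantile normalization turned Car9 (0.0227) between E2A-KO LMPP and WT LSK FLT3-. The cause of these changes with the setting was not tested.

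Nothing in the titles says that the replicate numbers pair the samples. The differences between replicates correlated at 0.02, -0.02 and -0.04 over genes. These values show no shared replicate difference over genes, but cannot show that the samples were not paired. With the replicate number as a block, 16 listed genes fell from WT LSK FLT3- to WT LMPP, 14 from WT LSK FLT3- to E2A-KO LMPP and 0 between the genotypes, and 200, 5914 and 6535 genes changed over the whole array between the genotypes, between the wild-type fractions and between E2A-KO LMPP and WT LSK FLT3-.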

Other observations

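The 4 probe sets that name a listed gene together with other symbols were set aside from the gene values. For Gapdh, 1 probe set that also names a pseudogene read 6.27 and 6.15 (log2) in WT LSK FLT3-, 7.63 and 7.44 in WT LMPP, against 7.57 and 7.13 in E2A-KO LMPP. It rose by 1.32 between the wild-type fractions (SE 0.17, limma adjusted p = 0.00122 over all probe sets), while the 3 probe sets annotated to Gapdh alone lay between -0.43 and -0.13 and did not pass. Another probe set with the same symbols was at 0.27 (limma adjusted p = 0.226 over all probe sets). A brighter one that names Gapdh and further symbols was at -0.45 (adjusted p = 0.0519). Which transcripts these shared probe sets read was not tested.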
